A study of Homo sapiens with 6 samples.

Results

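Transcripts of 45 ribosome biogenesis factors were compared between glutamine-independent MDA-MB-231GlnIND cells and the parental MDA-MB-231 line from which they derive. The 45 genes were taken by symbol from the 28265 gene rows of the deposited count tables. They encode the nucleolar proteins that transcribe, fold, cut and modify ribosomal RNA. MDA-MB-231 is a long-established breast cancer line of the triple-negative kind. GlnIND cells had been kept for more than 6 weeks in glutamine-free RPMI with 10% dialysed fetal bovine serum. The parental line grew in RPMI that held glutamine, with 10% fetal bovine serum, so cell population, glutamine supply and serum type differed together. Each group had 3 polyA RNA-seq libraries. The labels do not say whether these came from separate cultures or whether GlnIND cells were 1 clone, and p-values reflect library-to-library spread alone, which may be technical.

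Ribosomes are built in the nucleolus, where RNA polymerase I transcribes a long precursor of the ribosomal RNAs. A large assembly called the small subunit processome, made of the UTP-A and UTP-B complexes, the U3 small nucleolar ribonucleoprotein and many single factors, folds and cleaves the part that becomes the small subunit. Other factors mature the large subunit, and box C/D and box H/ACA ribonucleoproteins methylate and pseudouridylate the RNA. In cancer cells the genes of this pathway are known as targets of the transcription factor MYC, and ribosome production is among the largest costs of growth in amino acids and nucleotides.

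Depth was 21276815 to 24594248 counts per GlnIND library and 18256219 to 21741371 counts per parental library. Parental library 1 stood apart from the other 2 parental libraries. The chi-square of its counts against theirs was 23.8 and 33.3 per degree of freedom over genes, against 4.08 between parental 2 and 3 and 3.44 to 4.16 between GlnIND libraries. The labelled cell type was checked with 17 markers. VIM, CD44, KRT8, KRT18 and EGFR, genes this line is known to express, all averaged above 100 CPM (counts as a share of the library, scaled with TMM factors) in both groups. Of these the keratin genes KRT8 and KRT18 fell by 1.12 and 1.45 on the log2 scale in GlnIND cells. CD44 fell by 0.30, while VIM rose by 0.61 and EGFR by 0.36. The hormone receptor genes ESR1 and PGR averaged at most 0.188 CPM in either group. ERBB2, the remaining receptor gene, averaged 63.7 CPM in GlnIND cells and 36.1 CPM in parental cells. Of the 9 leukocyte, endothelial and fibroblast markers, 7 averaged at most 0.184 CPM in either group, while COL1A1 averaged 12.3 and 5.00 CPM and PECAM1 4.34 and 2.41 CPM in GlnIND and parental cells.

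Most ribosome biogenesis factors were lower in GlnIND cells. Of 44 genes tested, 31 fell, 3 rose and 10 were not called, where a call is a Benjamini-Hochberg adjusted p under 0.05 in edgeR's quasi-likelihood test over all 13949 tested genes. Over all tested genes 27.9% fell and 28.4% rose, 56.3% in all, against 70.5% and 6.82% of the 44. The median level was 137.6 CPM for the 44 genes and 26.19 CPM for all tested genes, so these shares are not at equal depth. The median log2 fold change (GlnIND over parental) of the 44 genes was -0.43, and that of all tested genes was 0.03. The fitted change was below 0 for 36 genes and above 0 for 8. The 3 GlnIND libraries lay below all 3 parental libraries at 33 of the 44 genes (31.3% of all tested genes) and above them at 5 (33.7% of all tested genes). The factors summed to 9973, 9889 and 9662 CPM in GlnIND libraries, against 15618, 13383 and 13019 CPM in parental libraries 1, 2 and 3. Every GlnIND sum was thus below every parental sum, and the mean GlnIND sum was 0.703 of the parental one. These CPM carry the TMM factors, which were 1.049 to 1.06 in GlnIND libraries and 0.9279 to 0.9592 in parental libraries. As a plain share of all counts, the genes made up 1.045%, 1.042% and 1.024% in GlnIND libraries. In parental libraries 1, 2 and 3 that share was 1.448%, 1.281% and 1.248%. Both measures are relative to the library, so a lower share and less RNA per cell cannot be told apart in these bulk samples.

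**Figure D1:**
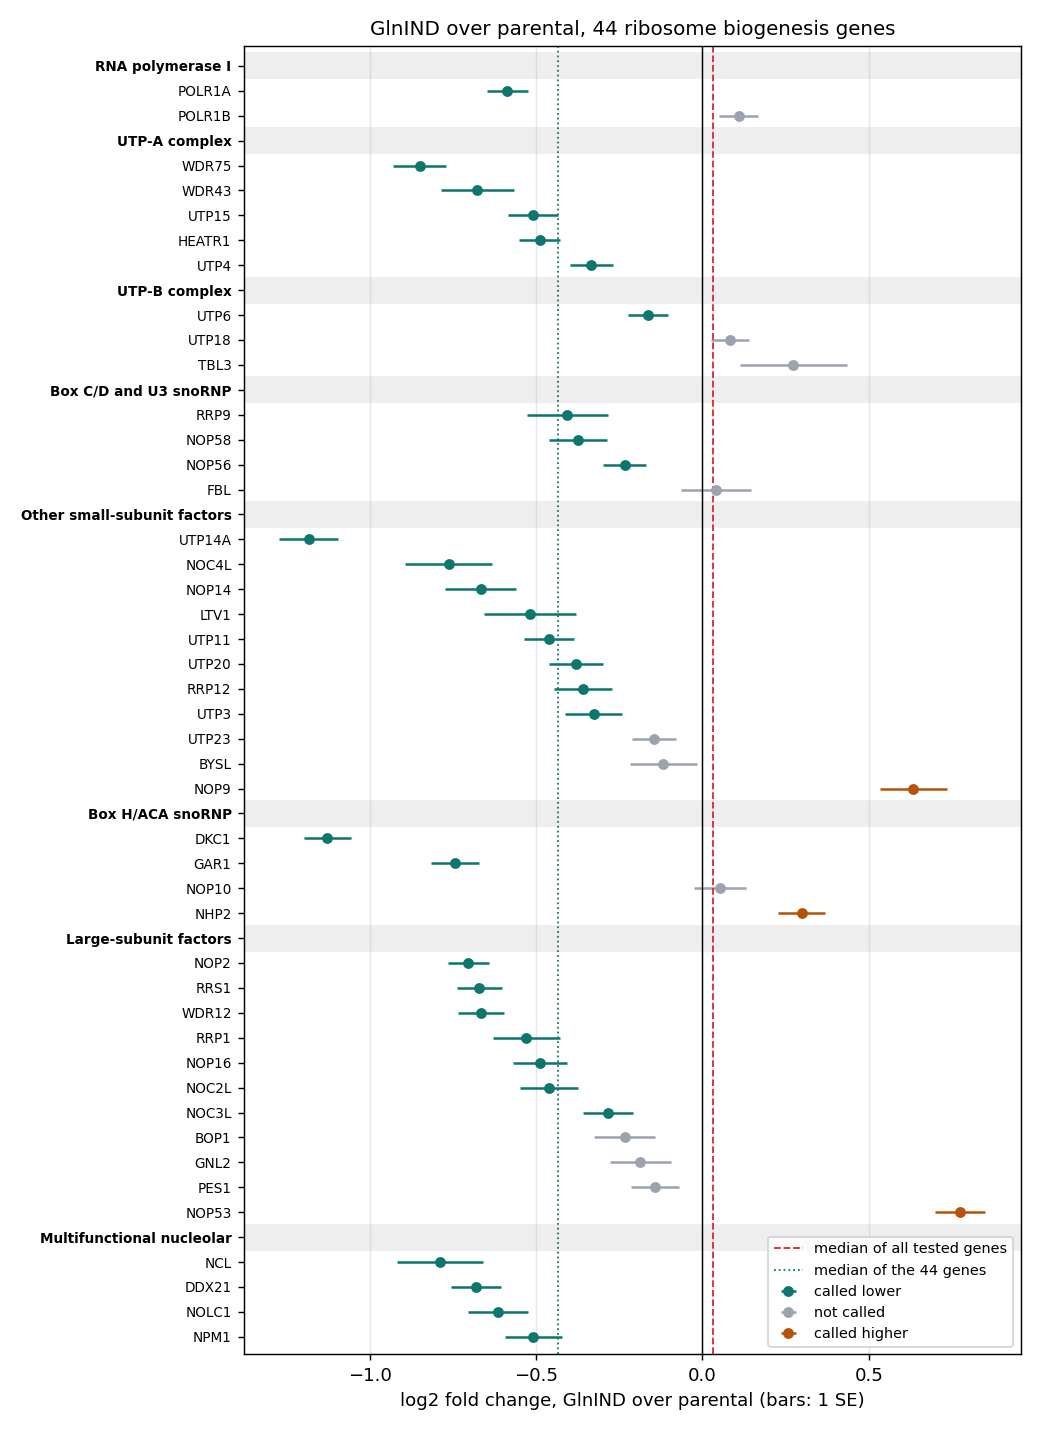
Log2 fold change of each of the 44 tested genes, GlnIND over parental, grouped by role; points are edgeR estimates, bars 1 standard error, and colours show genes called lower, higher or not called. The dotted line marks the median of the 44 genes at -0.43 and the dashed line that of all tested genes at 0.03.

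The spread between libraries was wider in parental cells. The coefficient of variation over 3 libraries had a median of 3.06% in GlnIND cells (0.404% to 8.55%) and of 9.69% in parental cells (1.49% to 25.1%), and it was larger in parental cells at 41 of 44 genes. Parental 1 held the highest parental value at 26 of the 44 genes. Without parental 1, 34 of the factors fell and 4 rose, and the 31 that fell with all libraries were among the 34. Over all tested genes 32.9% fell and 32.3% rose in that fit, both more than with all libraries. The 3 added were BOP1, BYSL and PES1.

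**Figure D2:**
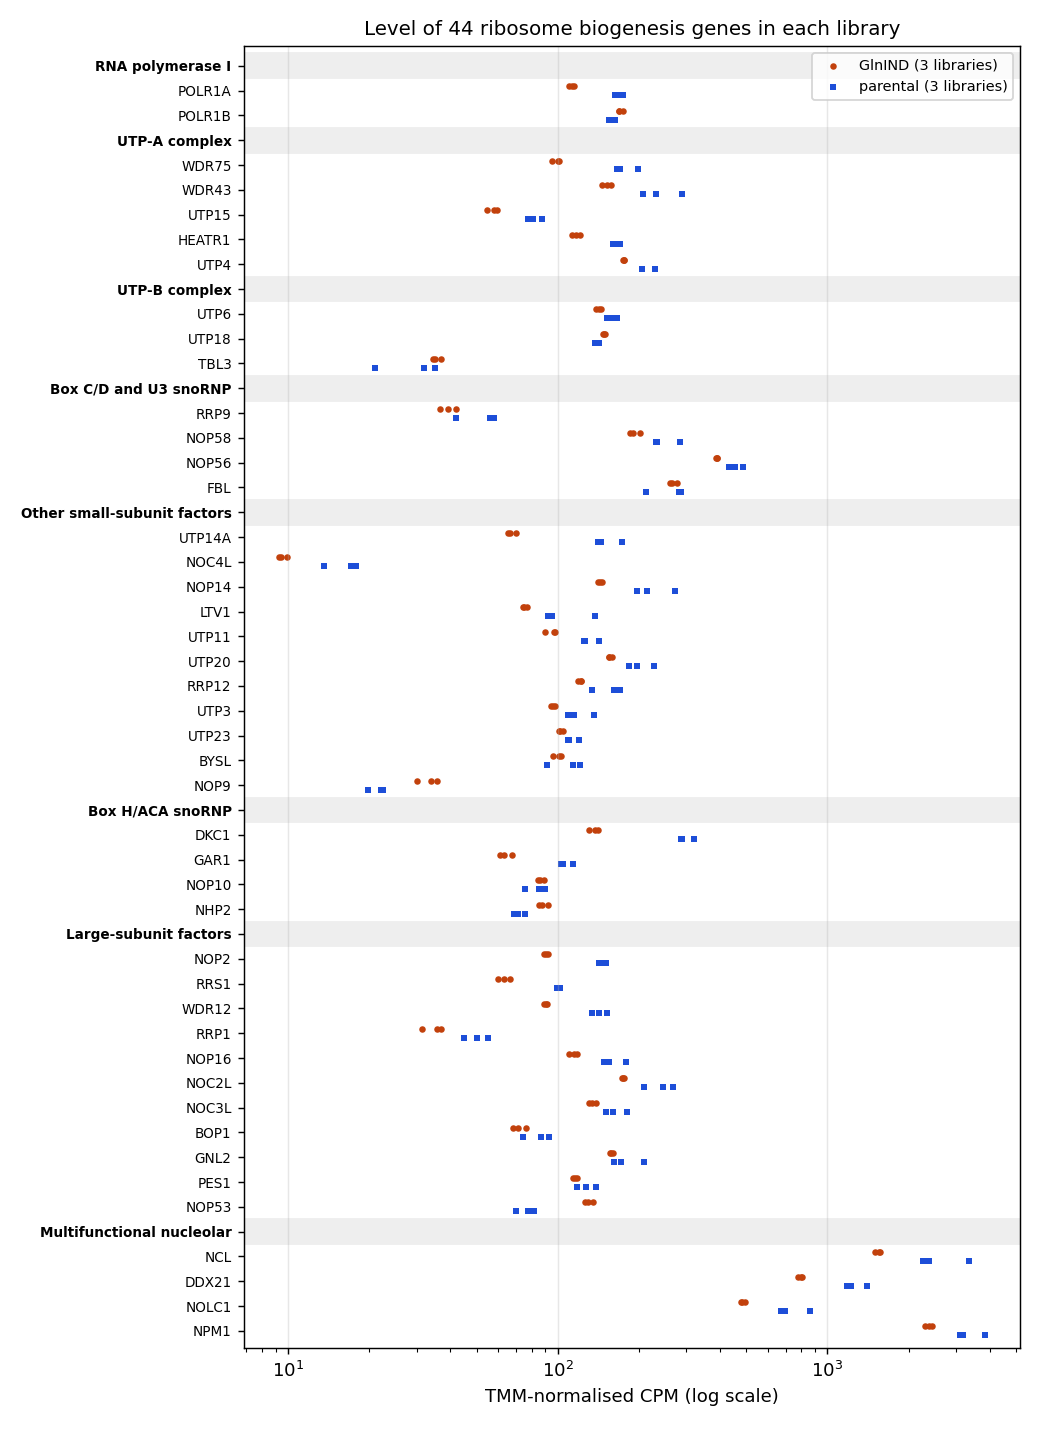
TMM-normalised CPM on a log axis of each tested gene in each of the 3 GlnIND libraries (circles) and 3 parental libraries (squares). At 33 of 44 genes all circles lie left of all squares, and the squares are usually spread more widely than the circles.

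The promoters of the factors were searched for the E-box CACGTG, the sequence that MYC binds with its partner MAX, which reads the same on both strands. RefSeq promoter windows (GRCh38.p14, 250 bases before to 50 after the start site) matched 39 of the 45 genes by symbol, all but UTP23, NOP58, RRP12, BOP1, NOLC1 and RRS1. The E-box was present in 16 of these 39 windows (41.0%), in 18 of 83 windows of the other listed ribosome biogenesis genes (21.7%), in 9.93% of 10985 windows of tested genes and in 7.43% of all 27305 windows. Among the factors it was present in 9 of 27 that fell, in 0 of 3 that rose and in 6 of 8 that were not called. The remaining window is that of the untested PWP2, which also holds the E-box. Among all tested genes the shares were 11.4% of those that fell, 9.3% of those that rose and 9.36% of those not called. MYC itself had 139, 131 and 147 CPM in GlnIND libraries, against 159, 154 and 145 CPM in parental libraries, with overlapping groups and a log2 fold change of -0.13 (standard error 0.068, edgeR adjusted p = 0.125). MAX fell by 0.28 on the log2 scale (standard error 0.075, edgeR adjusted p = 0.01).

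**Figure D3:**
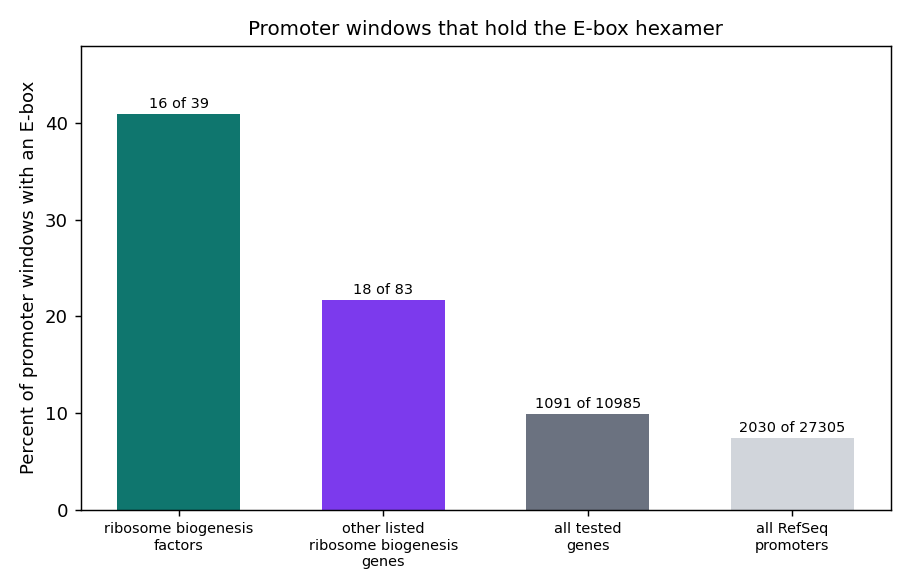
Percent of RefSeq promoter windows that hold the E-box, for the ribosome biogenesis factors, the other listed ribosome biogenesis genes, all tested genes and all windows; the numbers above the bars give windows with the E-box of windows searched. The bar of the factors stands at 41.0% and that of all windows at 7.43%.

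Stretches of 8 promoters are shown 5′ to 3′ on the gene's own strand, from 100 bases before to 30 bases after the RefSeq start site in GRCh38.p14, with the E-box in capitals. WDR43, UTP20, NOP14 and RRP9 represent genes that fell and hold an E-box at or beside the start site.
WDR43, chr2:28894567-28894696, plus strand: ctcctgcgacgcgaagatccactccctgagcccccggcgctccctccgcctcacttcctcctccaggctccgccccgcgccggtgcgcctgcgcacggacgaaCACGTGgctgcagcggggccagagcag
UTP20, chr12:101280005-101280134, plus strand: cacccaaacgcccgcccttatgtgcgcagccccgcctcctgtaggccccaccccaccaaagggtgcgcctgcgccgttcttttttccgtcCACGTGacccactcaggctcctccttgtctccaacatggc
NOP14, chr4:2963377-2963506, minus strand: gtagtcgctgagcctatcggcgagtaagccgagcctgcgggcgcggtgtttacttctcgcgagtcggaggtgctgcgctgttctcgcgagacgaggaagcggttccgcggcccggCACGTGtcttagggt
RRP9, chr3:51941875-51942004, minus strand: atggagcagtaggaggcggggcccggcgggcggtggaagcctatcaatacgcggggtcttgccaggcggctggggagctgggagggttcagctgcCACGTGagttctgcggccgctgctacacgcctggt
FBL holds an E-box in the same place and was not called.
FBL, chr19:39846350-39846479, minus strand: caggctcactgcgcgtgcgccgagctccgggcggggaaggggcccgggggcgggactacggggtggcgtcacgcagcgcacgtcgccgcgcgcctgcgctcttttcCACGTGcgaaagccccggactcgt
NCL and DKC1 fell and NOP53 rose, and none of these 3 holds an E-box in its window.
NCL, chr2:231464455-231464584, minus strand: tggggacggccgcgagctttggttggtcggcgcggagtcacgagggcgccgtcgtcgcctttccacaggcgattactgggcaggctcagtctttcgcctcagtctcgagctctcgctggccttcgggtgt
DKC1, chrX:154762764-154762893, plus strand: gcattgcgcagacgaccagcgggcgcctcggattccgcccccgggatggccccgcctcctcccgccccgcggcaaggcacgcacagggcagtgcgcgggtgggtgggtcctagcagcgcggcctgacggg
NOP53, chr19:47745446-47745575, plus strand: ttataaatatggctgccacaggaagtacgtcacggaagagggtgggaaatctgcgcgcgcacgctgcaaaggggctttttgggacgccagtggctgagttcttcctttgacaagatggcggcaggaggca
In the first 5 of these stretches the E-box began at position 4 (WDR43), -10 (UTP20), 16 (NOP14), -5 (RRP9) and 7 (FBL), counted from the start site as position 1 with the base before it as -1. The match is a feature of the reference sequence, and binding was not measured here.

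RNA polymerase I makes the ribosomal RNA precursor. POLR1A, its largest subunit, had 115, 113 and 109.6 CPM in GlnIND libraries, against 163, 175 and 169.9 CPM in parental libraries. All GlnIND values were below all parental values, with a log2 fold change of -0.59 (standard error 0.061, edgeR adjusted p = 3.82e-05). POLR1B, the second-largest subunit, had 175, 168 and 169 CPM in GlnIND libraries and 163, 156 and 155 CPM in parental libraries. Its groups did not overlap either, but in the other direction, and its log2 fold change of 0.11 (standard error 0.059) did not pass the test (edgeR adjusted p = 0.139). POLR1B passed without parental 1, at 0.12 (edgeR adjusted p = 0.0268), and with library totals in place of TMM factors, at 0.26 (0.00248).

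The 5 UTP-A genes all fell, as did 27.9% of all tested genes. Their products bind the precursor first and in human cells also support its transcription. WDR75 fell the most, to 100.1, 94.8 and 100.9 CPM in GlnIND libraries, against 198, 166 and 169.5 CPM in parental libraries (log2 fold change -0.85, standard error 0.080, edgeR adjusted p = 2.08e-05). WDR43 had 146, 152 and 157 CPM in GlnIND libraries, against 289, 231.5 and 206 CPM in parental libraries (log2 fold change -0.68, standard error 0.11, edgeR adjusted p = 0.000602). The groups of both genes were separate, with parental 1 the highest library of all. UTP15, HEATR1 and UTP4 had log2 fold changes of -0.51, -0.49 and -0.33, and their groups did not overlap. NOL11, the other UTP-A gene, was also called lower, at -0.15 (edgeR adjusted p = 0.0433).

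UTP-B joins the precursor after UTP-A, and 1 of its 3 tested genes among the 45 fell (33.3%, beside 27.9% of all tested genes). PWP2 was listed at 0 counts in every library and was not tested. The annotation and the handling of multi-mapped reads are not stated, so its level is unknown and the 0 does not show that the transcript was absent. UTP6 had 138, 145 and 142 CPM in GlnIND libraries, against 165, 152 and 159 CPM in parental libraries, and fell by 0.16 on the log2 scale (standard error 0.061, edgeR adjusted p = 0.0442). That call was lost without GlnIND 1, 2 or 3 or parental 3 (adjusted p = 0.127, 0.083, 0.0951 and 0.057), and with the replicate block (0.105). TBL3 had 36.9, 34.4 and 34.9 CPM in GlnIND libraries and 20.98, 32.0 and 34.9 CPM in parental libraries (log2 fold change 0.27, standard error 0.16, edgeR adjusted p = 0.175). Its groups overlapped, and parental 1 was the low library. TBL3 passed without parental 3 (0.40, edgeR adjusted p = 0.0495) and stood at 0.068 without parental 1 (0.464). UTP18 stood at 0.08 (standard error 0.057, edgeR adjusted p = 0.244) and passed with library totals, at 0.24 (0.00462). The remaining UTP-B genes WDR3 and WDR36, named here to complete the complex, fell by 0.37 and 0.39 on the log2 scale (edgeR adjusted p = 0.00152 and 0.00173).

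The box C/D proteins form the core of the U3 particle and of the particles that guide ribose methylation. NOP58 had 202, 189.6 and 186 CPM in GlnIND libraries, against 284, 231 and 232 CPM in parental libraries, without overlap (log2 fold change -0.37, standard error 0.087, edgeR adjusted p = 0.00485). NOP56, its partner in the core, fell by 0.23 on the log2 scale (standard error 0.064, edgeR adjusted p = 0.0115). RRP9 encodes the protein specific to U3, and the E-box in its promoter ends at the start site. RRP9 had 39.2, 42.0 and 36.5 CPM in GlnIND libraries, against 42.1, 56.1 and 57.9 CPM in parental libraries. Its log2 fold change was -0.41 (standard error 0.12, edgeR adjusted p = 0.0178). Parental 1 lay just above the highest GlnIND library. The RRP9 call was lost without GlnIND 1, GlnIND 3 or parental 2 (adjusted p = 0.0545, 0.0729 and 0.0515). FBL, the methyltransferase itself, averaged 268 ± 9.30 CPM in GlnIND cells and 260.1 ± 41.2 CPM in parental cells (SD, n = 3 each), with overlapping groups and an edgeR adjusted p of 0.763. Its log2 fold change of 0.04 (standard error 0.11) turned to -0.096 without parental 1 (adjusted p = 0.065).

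Of 11 further small subunit factors 8 fell and 1 rose, beside 27.9% and 28.4% of all tested genes, and 2 were not called. UTP14A had the largest change of all the factors. It stood at 69.7, 66.3 and 65.4 CPM in GlnIND libraries, against 173, 144 and 140.4 CPM in parental libraries, a log2 fold change of -1.18 (standard error 0.088, edgeR adjusted p = 4.57e-06), and the groups were far apart. In yeast its counterpart activates the helicase that releases U3. UTP14C, a retrogene copy of UTP14A, was listed at 0 counts in every library. As the handling of multi-mapped reads is not stated, this 0 does not show that the UTP14C transcript was absent. NOC4L, which in yeast pairs with the NOP14 counterpart, had the lowest level of the tested factors. It had 9.91, 9.45 and 9.29 CPM in GlnIND libraries, against 13.6, 17.2 and 17.9 CPM in parental libraries (log2 fold change -0.76, standard error 0.13, edgeR adjusted p = 0.000818). NOP14 fell by 0.67, LTV1, a factor of late small subunit assembly, by 0.52, the processome components UTP11, UTP20 and UTP3 by 0.46, 0.38 and 0.33 and RRP12, which in yeast aids export of the particles, by 0.36 on the log2 scale. LTV1 had 74.5, 77.1 and 75.2 CPM in GlnIND libraries, against 138, 94.96 and 92.0 CPM in parental libraries, and stood at -0.32 without parental 1. UTP23, a processome component, and BYSL, a late factor, were not called, at -0.15 and -0.12 (edgeR adjusted p = 0.0825 and 0.346), and BYSL passed without parental 1, at -0.24 (0.000103), and stood at -0.057 without parental 3 (0.653). NOP9, an RNA-binding protein of small subunit maturation in yeast, was the exception, with 30.2, 35.7 and 34.0 CPM in GlnIND libraries and 19.8, 22.5 and 22.1 CPM in parental libraries. It rose by 0.63 on the log2 scale (standard error 0.10, edgeR adjusted p = 0.000529).

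The 4 proteins of the box H/ACA core, which is also part of telomerase, did not all change in 1 direction. DKC1, the pseudouridine synthase, had 142, 130.2 and 137 CPM in GlnIND libraries, against 321, 286 and 288 CPM in parental libraries (log2 fold change -1.13, standard error 0.070, edgeR adjusted p = 1.62e-06). GAR1 had 67.4, 63.4 and 60.9 CPM in GlnIND libraries, against 114, 104.6 and 103 CPM in parental libraries (log2 fold change -0.74, standard error 0.073, edgeR adjusted p = 2.63e-05). Both were well separated between the groups. NHP2 went the other way, with 92.0, 87.6 and 85.1 CPM in GlnIND libraries and 68.5, 75.6 and 71.1 CPM in parental libraries, a log2 fold change of 0.30 (standard error 0.071, edgeR adjusted p = 0.00524). NOP10, the smallest protein of the core, overlapped between groups (log2 fold change 0.05, standard error 0.079, edgeR adjusted p = 0.596), and its value was -0.026 without parental 1.

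Of 11 large subunit factors 7 fell and 1 rose, beside 27.9% and 28.4% of all tested genes, and 3 were not called. NOP2, a methyltransferase of the large ribosomal RNA, had 90.5, 91.9 and 88.5 CPM in GlnIND libraries, against 149, 150.5 and 142 CPM in parental libraries (log2 fold change -0.70, standard error 0.061, edgeR adjusted p = 1.25e-05). NOP53 rose the most of all the factors. It had 135, 129.8 and 126 CPM in GlnIND libraries and 69.8, 81.3 and 77.3 CPM in parental libraries, a log2 fold change of 0.78 (standard error 0.075, edgeR adjusted p = 2.37e-05). In yeast its counterpart brings the RNA exosome, the nuclease that trims precursor ends, to the large subunit particle. RRS1, which with its partner loads the small ribosomal RNA of the large subunit, fell by 0.67 on the log2 scale, RRP1 by 0.53 and NOP16 by 0.49, both factors of early large subunit particles in yeast. NOC2L and NOC3L, whose yeast counterparts bind each other on those particles, fell by 0.46 and 0.28. GNL2, a GTPase, was at -0.19 (edgeR adjusted p = 0.107) and passed without parental 3, at -0.29 (0.0217), but stood at -0.081 without parental 1 (0.144). RRP1B, a paralogue of RRP1, also fell, by 0.55.

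WDR12, PES1 and BOP1 form a single complex (PeBoW) that large subunit maturation needs. WDR12 fell by 0.67 on the log2 scale (standard error 0.069, edgeR adjusted p = 3.58e-05), with 91.0, 90.1 and 88.9 CPM in GlnIND libraries, against 153, 142 and 133 CPM in parental libraries. PES1 was at -0.14 (standard error 0.073, edgeR adjusted p = 0.121) and BOP1 at -0.23 (standard error 0.092, 0.052), and the groups of both overlapped. The differences between the 3 genes were not tested. Without parental 1, the low parental library of both, PES1 stood at -0.21 (edgeR adjusted p = 0.00046) and BOP1 at -0.33 (4.03e-06). That fit called more of all tested genes too (32.9% lower and 32.3% higher, beside 27.9% and 28.4%). Neither gene passed without GlnIND 1, 2 or 3 (BOP1 edgeR adjusted p = 0.126, 0.0644 and 0.155, PES1 0.204, 0.251 and 0.17).

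NCL (nucleolin), NPM1 (nucleophosmin), NOLC1 and DDX21, abundant nucleolar proteins with several roles, all fell, beside 27.9% of all tested genes. NCL had 1549, 1573 and 1503 CPM in GlnIND libraries, against 3345, 2391 and 2260 CPM in parental libraries (log2 fold change -0.79, standard error 0.13, edgeR adjusted p = 0.000615). DDX21, a helicase that acts in transcription and processing of ribosomal RNA, had 804, 799.6 and 775 CPM in GlnIND libraries, against 1407, 1225 and 1181 CPM in parental libraries (log2 fold change -0.68, standard error 0.075, edgeR adjusted p = 5.26e-05). NPM1, a histone and ribosome chaperone, had 2446, 2375 and 2297 CPM in GlnIND libraries, against 3849, 3181 and 3095 CPM in parental libraries (log2 fold change -0.51, standard error 0.087, edgeR adjusted p = 0.000778). The groups of all 4 genes were separate, and parental 1 was the highest library for each. NOLC1, which binds small nucleolar particles, fell by 0.61 on the log2 scale. Without parental 1, NCL and NPM1 stood at -0.60 and -0.41. Together the 4 genes made up 52.8% of the summed CPM of the factors in GlnIND cells and 57.5% in parental cells. The other 41 genes summed to 4650 ± 42.1 CPM in GlnIND cells and 5953 ± 183 CPM in parental cells (SD, n = 3 each), a ratio of 0.781.

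Per kilobase of exon (GENCODE v29 exon lengths), NPM1 ranked first in both groups, at 619.8 CPM per kilobase in GlnIND cells and 882 in parental cells. NCL came next, at 223 and 385 CPM per kilobase, and then DDX21, at 158 and 253 CPM per kilobase, in GlnIND and parental cells. The short NOP10 followed in GlnIND cells, at 156 CPM per kilobase, against 151 in parental cells, where NOLC1 took that rank. The lowest levels in GlnIND cells were those of NOP9, TBL3 and NOC4L, at 5.52, 4.96 and 4.71 CPM per kilobase. Exon lengths came from another annotation than the counts, so these levels are approximate.

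The size of most changes was modest. With the change tested against a fold of 1.5 (edgeR's glmTreat), 4 factors passed as lower, namely UTP14A, DKC1, WDR75 and GAR1, and NOP53 alone passed as higher. Over all tested genes 7.12% passed this test as lower and 9.99% as higher. Among the 31 that fell, the log2 fold change ran from -1.18 to -0.16, and 14 were lower by a fitted fold of at least 1.5. The 10 not called lay between -0.23 and 0.27.

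Genes of the same pathway outside the 45 were mostly lower as well. Of 96 listed genes 95 were tested, of which 60 fell, 4 rose and 31 were not called (63.2% and 4.21%, beside 27.9% and 28.4% of all tested genes), with a median log2 fold change of -0.34. With library totals in place of TMM factors 47 of the 95 fell and 12 rose, beside 20.1% and 38.4% of all tested genes, and 25 of the 44 factors fell and 5 rose. In the RNA polymerase I machinery 7 of 12 fell and 1 rose. TAF1D, a subunit of the promoter selectivity factor, had the lowest value, -1.44 (57.3 CPM in GlnIND cells, 156 CPM in parental cells), and the subunit POLR1C rose by 0.21 (edgeR adjusted p = 0.037). UBTF, the architectural factor of the polymerase I promoter, was at 171 and 166 CPM in GlnIND and parental cells (edgeR adjusted p = 0.711). Of 29 small subunit genes 21 fell and 0 rose, with the helicase DDX10 lowest at -0.96. Of 40 large subunit genes 24 fell and 2 rose. SBDS, which with the GTPase EFL1 makes the large subunit ready to join, fell by 1.03, while EFL1 rose by 0.42 on the log2 scale, and ZNF622, whose yeast counterpart acts in the cytoplasm on the same particle, rose by 0.59. Of 14 RNA exosome genes 8 fell and 1 rose, from EXOSC3 at -0.89 to EXOSC5 at 0.67.

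**Figure D4:**
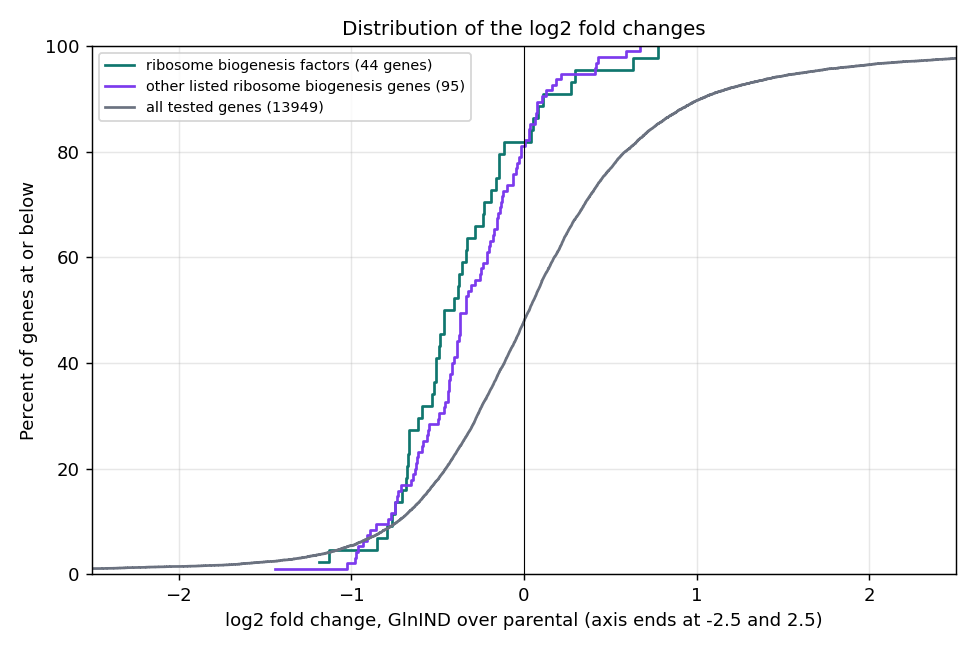
Cumulative share of genes (percent) by log2 fold change, GlnIND over parental, for the 44 ribosome biogenesis factors, the 95 other listed ribosome biogenesis genes and all 13949 tested genes. Above the lowest changes both ribosome biogenesis curves run left of that of all genes, with medians of -0.43 and -0.34 against 0.03.

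The factors were also set beside their chromosomal neighbours. For each gene the median log2 fold change of up to 40 neighbouring tested genes was taken, 20 on either side in GRCh38.p14 gene order. UTP14A and DKC1, both on chromosome X, lay among neighbours with medians of -0.93 and -0.79, and with the neighbour median removed they stood at -0.26 (adjusted p = 0.0334) and -0.33 (0.00311). NOC4L had a neighbour median of -0.56 and was no longer called without it (-0.20, adjusted p = 0.223). WDR75 and NOP2 had neighbour medians of -0.42 and -0.47, NOP53 and NOP9 of 0.36 and 0.33. With these removed, NOP2 stood at -0.24 (adjusted p = 0.00948), WDR75 at -0.43, NOP53 at 0.42 and NOP9 at 0.30. In contrast, WDR43 and RRP9 fell among neighbours with medians of 0.34 and 0.49, and stood at -1.02 and -0.89 with these removed. FBL, with a neighbour median of 0.34, turned to -0.30 with it removed (adjusted p = 0.0408).

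Over the 44 factors the neighbour medians had a median of 0.03, and 13 of the 31 genes that fell had neighbours with a median above 0. The factors lay below their own neighbour median at 40 of 44 genes, while 50.2% of 13771 tested genes did. The correlation between a factor's log2 fold change and its neighbour median was 0.69 (Pearson's r) and 0.64 (Spearman's rho) across 44 genes, and 0.59 by either measure for the 42 genes outside chromosome X. Across all 13771 tested genes the same r was 0.25 and rho 0.42. Log2 fold changes ran from -12.33 to 12.37 over the 13949 tested genes and from -1.18 to 0.78 over the factors. The correlations of the 2 sets are thus not directly comparable. All are across genes that share the 6 libraries and their scaling, and are given as a description. With neighbour medians removed from all genes, 30 of the factors fell and 3 rose, 26 of the 30 among the 31 that fell before, and over all tested genes 25.1% fell and 23.8% rose. Of the other pathway genes, TAF1D, DDX10, SBDS, ZNF622 and EXOSC5 had neighbour medians, in this order, of -0.88, -1.03, -0.65, 0.51 and 0.51.

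**Figure D5:**
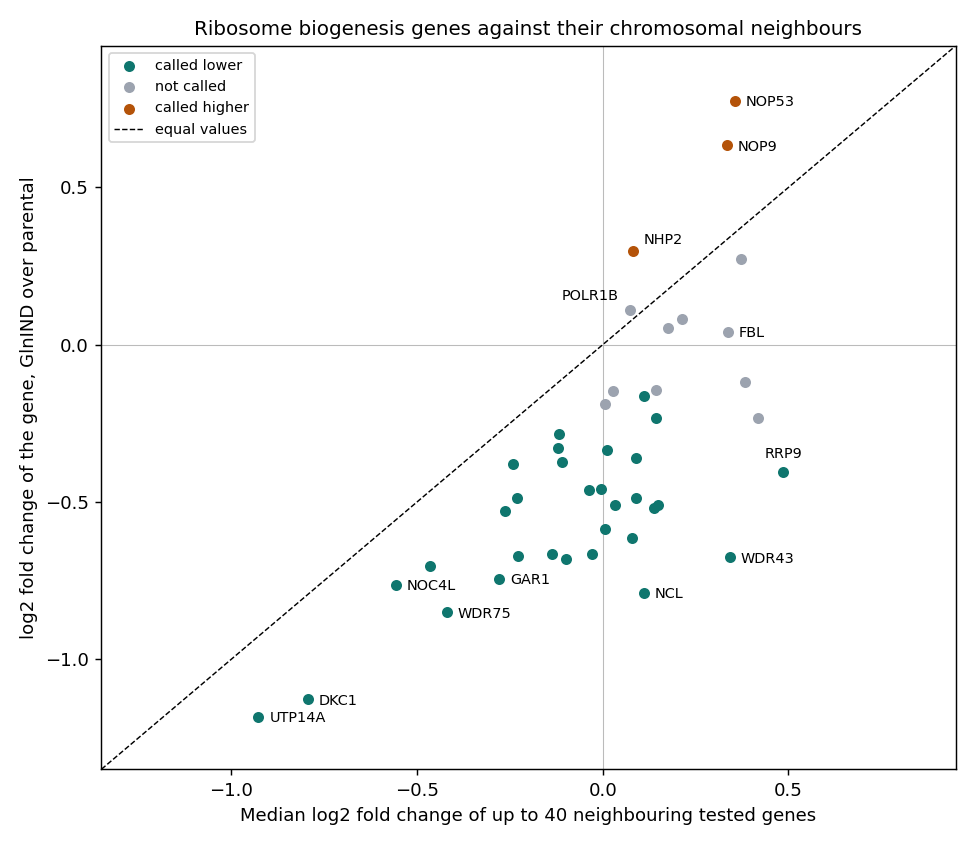
Log2 fold change of each tested factor, GlnIND over parental, against the median of up to 40 neighbouring tested genes; the dashed line marks equal values. At 40 of 44 genes the point lies below the line, with UTP14A and DKC1 at the lower left and NOP53 and NOP9 at the upper right.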

How the data were processed

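PolyA RNA from 6 libraries was measured by sequencing. The kit was Kapa mRNA HyperPrep with oligo-dT selection, per the labels' protocols. The deposited values are unnormalised read counts for each gene symbol, in a table for every library and in a joint matrix. FastQC, STAR, featureCounts and DESeq are named, with build hg19, per the submitters' processing notes. Their versions, the annotation, the strand setting and the handling of multi-mapped reads are not given in the sources used here, so overlapping, antisense and near-identical genes may share or lose counts. The matrix held the tables' values with the names of replicates 1 and 3 exchanged within each group, and the tables' numbers were used.

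Counts were tested with edgeR 4.0.16 in R 4.3.3 (glmQLFit, glmQLFTest, two-sided, TMM factors, default filterByExpr with a minimum count of 10 and a total of 15, group as the only term), and adjusted over 13949 tested genes. The procedure was checked on simulated data with equal spread in both groups, so the wider parental spread was not part of that check. The standard error was derived from the F statistic. The exact permutation test of 3 against 3 libraries cannot go below p = 0.1, so it was not used. Of the 96 pathway genes 3 were found under an older symbol. Promoter sequences and gene order came from RefSeq (GRCh38.p14). Alternatives were other factors and filters, each library left out, a replicate block, DESeq2 1.42.0, limma-voom (limma 3.58.1), stricter thresholds, the matrix, and removal of neighbour medians.

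The members and lists were chosen with earlier results of these data known. Values in every library are given for the 2 largest changes per role, the 3 most abundant genes and any gene under 1 CPM. From each pathway list the highest and lowest called gene is named, with MYC, UBTF and the similar copies UTP14C and RRP1B (the tables hold no NPM1 pseudogene row). NOP9, NHP2, WDR12, LTV1, MAX, WDR3, WDR36 and EFL1 were added after their values were seen.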

Additional observations from a re-analysis of the deposited data

How the results depend on the processing

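Of the factors, 25 to 34 fell, beside 19.9% to 32.9% of all tested genes, under all settings except the test against a fold of 1.5. In that test 4 factors fell and 1 rose (993 and 1394 of all tested genes, and 10 and 0 of the other listed genes). Leaving out 1 library at a time gave 29 to 34 lower and 3 to 4 higher factors (23.6% to 32.9% of all tested genes lower and 22.3% to 32.3% higher) and a median log2 fold change of -0.47 to -0.41. The other listed genes called higher then numbered 2 to 7. The median of all tested genes was 0.12 under upper-quartile scaling and 0.18 under library totals, and that of the factors was -0.34 and -0.28. Scaling moves all genes by about the same amount, so the distance of -0.47 between these medians is fixed by construction. With each of these 2 scalings 5 factors rose, and 7 and 12 of the other listed genes rose. All tested genes called lower and higher were 3888 and 3965 with TMM factors, 3204 and 4749 with upper-quartile factors and 2810 and 5356 with library totals. With library totals UTP23, BYSL and PES1 turned to 0.0078, 0.033 and 0.0093, and calls of NOC3L, NOP56, RRP12, RRP9, UTP3 and UTP6 were lost. Upper-quartile factors lost NOP56, RRP9 and UTP6, and RLE factors and DESeq2 added BOP1. With neighbour medians removed the factors' median was -0.34, 2 of the other listed genes rose, and TBL3, UTP18, FBL and NOP10 turned to -0.099, -0.13, -0.30 and -0.12, with calls of NOC3L, NOC4L, RRP1, UTP20 and UTP3 lost and of BOP1, BYSL, FBL and PES1 added. Its p-values treat the removed median as known. With 1 library left out FBL ranged from -0.096 to 0.096 and NOP10 from -0.026 to 0.087, both lowest without parental 1. At an adjusted p under 0.01, 28 factors fell and 3 rose, 48 of the other listed genes fell and 2 rose, and 21.5% and 20.5% of all tested genes fell and rose. The cause of these changes was not tested.

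The labels name no pairing of the libraries by replicate number. The deviations of same-numbered libraries from their group means correlated at -0.0629, 0.0299 and -0.037. GlnIND 1 correlated best with parental 3 (0.0505) and GlnIND 3 with parental 1 (0.0757). With 3 libraries in each group, such small correlations cannot decide whether libraries were paired. With the replicate block 30 factors fell and 3 rose (25.7% and 26.7% of all tested genes), with a median of -0.42, and UTP6 (-0.16, adjusted p = 0.105) was the 1 call lost. PWP2, at 0 counts in every library, could not be tested under any setting. Depth was lowest for NOC4L among the tested factors, at 9.55 CPM on average in GlnIND cells.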
